A study of Mus musculus with 33 samples.

Results

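Blood vessels of the newborn mouse lung and liver are described here through 10 endothelial genes: Cdh5, Cldn5, Pecam1, Emcn, Kdr, Flt1, Tek, Tie1, Eng and Lyve1. The genes were chosen by name, and every probe set annotated to 1 of them alone was taken, which gave 10 of 8251 named genes on the array and 14 of 12422 probe sets. Whole-organ total RNA had been hybridized to 33 MGU74Av2 arrays, which fall into 11 groups with 3 mice in each, of a strain that the labels give as C57/BL or BL/57. Lungs of the 10% oxygen arm were taken from fetuses at day 21 (F21) whose dams had spent 12 h in 10% oxygen, and from pups 2 and 6 h after birth in 10% oxygen. Lungs of the room-air arm (21% oxygen) were taken at F21 and 2, 6, 12 and 24 h after birth, and livers of that arm at F21 and at postnatal hours 2 and 6. All mice were untreated otherwise, and every array held RNA of many cell types, so fewer endothelial cells and less RNA per endothelial cell cannot be told apart in any value below.

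Endothelial cells line all blood and lymph vessels and seal them with 2 kinds of contact, adherens junctions built on VE-cadherin (Cdh5) and tight junctions built on claudin-5 (Cldn5), with PECAM-1 (Pecam1) at the same borders. Their growth and quiescence are set by receptors for VEGF (Kdr and Flt1), by the angiopoietin receptor TIE2 (Tek) with its partner TIE1 (Tie1), and by endoglin (Eng), a co-receptor for BMP and TGF-beta ligands. Endomucin (Emcn) is a sialomucin of capillary and venous endothelium, and Lyve1 is a hyaluronan receptor known from lymphatic vessels, from liver sinusoids and from some macrophages and fetal vessels. At birth the lung capillary bed begins to carry the output of the right heart as the air spaces clear of fluid, and the study set lungs born into room air against lungs born into 10% oxygen and against liver.

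Promoters of the members were read as 250 bases before to 50 bases after the start of the RefSeq gene on GRCm38.p6, and 7 of the 10 members had an entry (Emcn, Cldn5, Eng, Tek, Tie1, Kdr and Flt1). Emcn and Cldn5 are printed because they were the members called at 6 h for a change that differed between lung and liver. Both calls were fragile, as given further on. Capitals mark matches to AGGAAG or to its reverse complement CTTCCT, a core bound by ETS factors, the family that many endothelial promoters use. The Emcn window lies on the plus strand at chr3:137340828-137341127 and the Cldn5 window on the plus strand at chr16:18776597-18776896.
Emcn: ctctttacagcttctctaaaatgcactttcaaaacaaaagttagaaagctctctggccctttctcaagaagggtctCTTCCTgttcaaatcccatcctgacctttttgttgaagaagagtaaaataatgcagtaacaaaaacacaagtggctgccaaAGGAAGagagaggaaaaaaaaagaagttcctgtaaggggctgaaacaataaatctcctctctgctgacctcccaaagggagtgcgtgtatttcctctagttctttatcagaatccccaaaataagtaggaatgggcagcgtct
Cldn5: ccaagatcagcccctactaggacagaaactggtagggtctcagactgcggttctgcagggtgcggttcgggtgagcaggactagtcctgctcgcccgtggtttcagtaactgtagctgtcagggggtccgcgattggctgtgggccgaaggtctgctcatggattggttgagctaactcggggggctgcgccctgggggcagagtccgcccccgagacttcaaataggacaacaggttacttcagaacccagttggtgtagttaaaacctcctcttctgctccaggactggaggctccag

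AGGAAG was found on either strand in 4 of the 7 member promoters (Emcn, Eng, Tie1 and Flt1, with 2 matches each) and in 35.4% of 32851 promoters of the same length. ACGTG, a form of the core of the hypoxia response element, was found on either strand in 0 of the 7 and in 19.6% of all promoters. The form that starts with G, GCGTG, was not counted. It stands on a strand of the Emcn, Kdr and Flt1 windows, so absence of the core was not shown. These letters are a description of a short window and were set against no binding data.

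Each value below is a probe set's signal, a brightness on a linear scale that the study's software had scaled to the same trimmed mean on every array, so a signal compares 1 probe set between arrays and says nothing of 1 gene against another. Tests were run with limma on log2 signals, with signals under 10 set to 10, over the 6927 probe sets of lung, 5688 of liver and 7075 of both that were bright enough, and a change passed at a Benjamini-Hochberg adjusted p under 0.05 over all of them. In lung 12 of the 14 member probe sets entered the tests and covered all 10 genes, and in liver 8 did, which left out Emcn, Tek and 1 of the probe sets of Tie1. The untested lung probe sets were Emcn 93884_at, at 3.2 to 44.0 in lung, and Flt1 98453_at, at 8.3 to 73.4. The number of arrays, 3 a group, limits the precision. The sources do not say that the mice came from different litters, so p-values measure the spread between these samples only. The lung fit took 1 spread per probe set for both arms, although replicates differed more in 10% oxygen. A typical probe set varied within a group by an SD of 0.42 to 0.48 (log2) there, against 0.29 to 0.36 in room-air lungs. Room-air lung p-values therefore carry some spread of the other arm, and intervals within 10% oxygen may be too narrow.

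Tissue labels held: the summed signal of 7 lung epithelial markers was 22149.8 to 74268.8 in lung and 246.8 to 512.2 in liver, and that of 6 hepatocyte markers was 68.2 to 478.6 in all lung arrays but 1 and 81124.6 to 108138 in liver. The exception was replicate 2 of the F21 lungs in 10% oxygen, with a hepatocyte sum of 2837.6 and an albumin signal of 2160, against 84.6 and 65.3 in the other replicates. The arms also differed in RNA quality, since the 3′ to 5′ signal ratio of Gapdh ranged over 1.21 to 9.40 where oxygen was 10% and over 0.734 to 1.15 in room-air lungs, and arrays of 1 group correlated at 0.749 to 0.825 in 10% oxygen and at 0.896 to 0.950 in room air. RNA quality and oxygen level therefore cannot be told apart between the arms. In livers the Gapdh ratio was 1.30 to 1.86, above all room-air lungs, so RNA quality and organ cannot be told apart either.

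Over the first day in room air, Cdh5 rose at 2 h, Lyve1 rose at 6, 12 and 24 h, and Emcn fell at 12 h, while Cldn5, Pecam1, Kdr, Flt1, Tek, Tie1 and Eng passed at no time. The 4 times were each set against the same 3 F21 room-air lungs, so their results are not independent of each other. Of the 12 member probe sets, 1 passed at 2 h, where 4.24% of all tested probe sets did, 1 at 6 h (1.02% of all), 2 at 12 h (1.34% of all) and 1 at 24 h (0.577% of all). The median change of the members was 0.10, −0.08, 0.15 and 0.16 (log2) at 2, 6, 12 and 24 h, and that of all tested probe sets was 0.02, −0.04, −0.02 and −0.04. Groups of arrays that did not overlap with F21 were found for 5 member probe sets at 2 h (4 higher and 1 lower), for 4 at 6 h (2 higher and 2 lower), for 5 at 12 h (2 higher and 3 lower) and for 4 at 24 h (2 higher and 2 lower), against 30.8%, 21.9%, 21% and 18.3% of all tested probe sets in either direction.

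**Figure D1:**
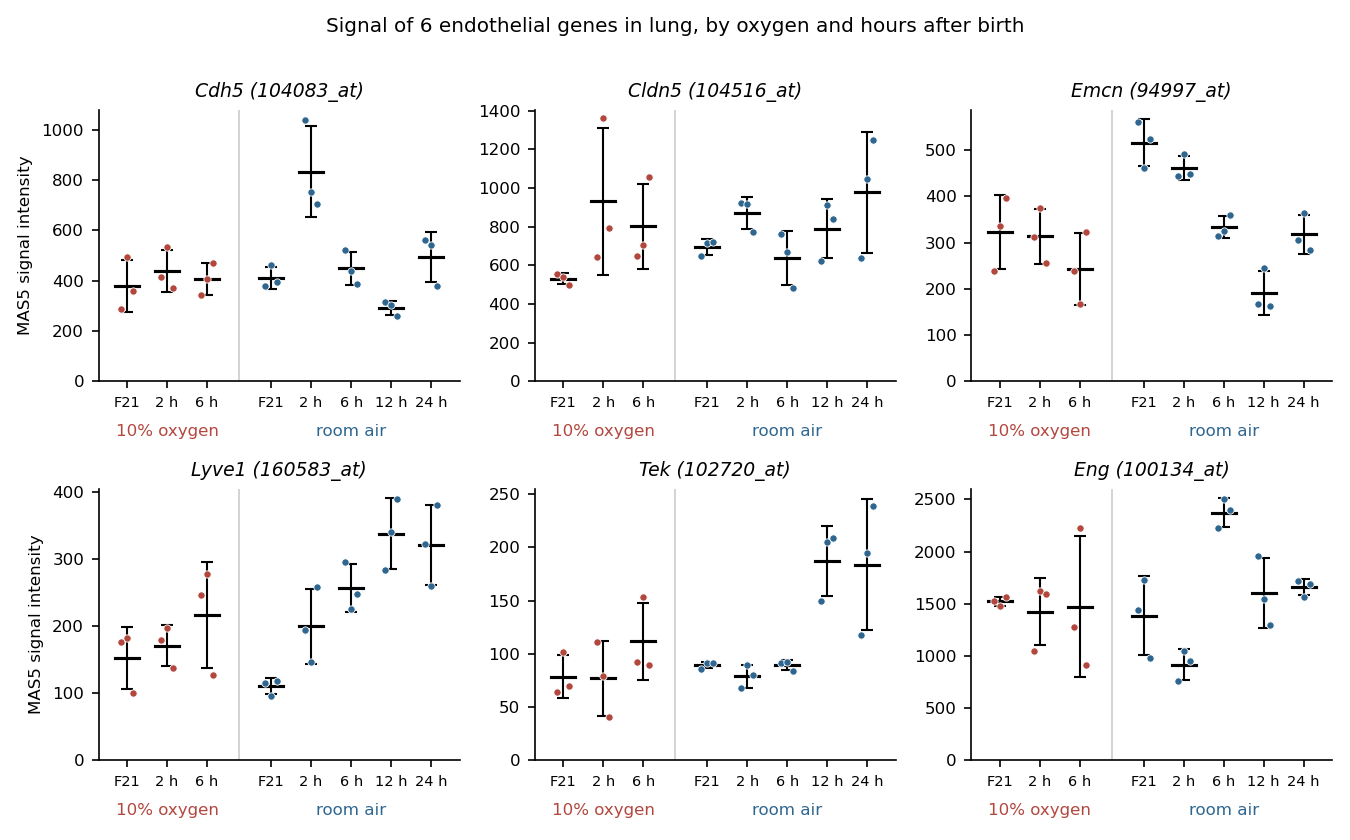
Signals of 6 member genes in each lung array, with lungs of 10% oxygen on the left and room-air lungs on the right of each panel. Points are arrays and bars are the mean ± SD of 3 arrays. Cdh5 stands highest in the room-air lungs at 2 h, Lyve1 lies above its F21 level in every room-air array after birth, and Emcn 94997_at is lowest in room air at 12 h.

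Cdh5, the cadherin of endothelial adherens junctions, had its highest level of all 11 groups 2 h after birth in room air. Its signal in room-air lungs was 377.0, 462.1 and 393.7 at F21, 1040.9, 754.4 and 706.5 at 2 h, 520.6, 437.8 and 388.7 at 6 h, 314.7, 302.0 and 260.1 at 12 h, and 560.3, 543.8 and 379.6 at 24 h. Every array at 2 h lay above every array of the other groups, and replicate 1 at 2 h was the highest of all. The change at 2 h was 1.01 (log2, 95% interval 0.55 to 1.46, SE 0.22, limma adjusted p = 0.00997), or 2.01-fold. By 6 h the arrays overlapped with F21 again (log2 change 0.12, −0.33 to 0.58), and at 12 h the 3 arrays lay below all F21 arrays with a log2 change of −0.49 that did not pass (limma adjusted p = 0.38). Without replicate 1 at 2 h the change was 0.83 with a limma adjusted p of 0.0778, and it passed when any other array was left out. At the same hour the summed signal of 7 lung epithelial markers was 27659.8 to 32483.4, against 48268 to 62565.6 at F21, and that of 8 leukocyte markers was 2478.8 to 4011.3, against 874.2 to 1729.4, and their part in the Cdh5 result was not tested.

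Cldn5, the main claudin of endothelial tight junctions, passed at no time in room-air lung. Its signal was 649.2, 716.4 and 722.3 at F21, 923.0, 915.5 and 774.1 at 2 h, 761.2, 666.9 and 484.1 at 6 h, 620.5, 910.6 and 837.5 at 12 h, and 635.6, 1048.2 and 1247.1 at 24 h. The arrays at 2 h lay above F21 and those of later times overlapped with it, and no log2 change passed (0.32 at 2 h, −0.15 at 6 h, 0.16 at 12 h and 0.44 at 24 h). Pecam1, the adhesion molecule that also marks platelets and some leukocytes, spread too widely for a comparison, with arrays of 28.9, 91.3 and 182.8 at 6 h in room air and of 304.2, 149.6 and 37.6 at 6 h in 10% oxygen. Its 95% interval against F21 in room air was −0.66 to 2.20 at 2 h (log2), the widest among the members. Of 23 other junction genes tested (cadherin-bound catenins, tight junction scaffolds and related adhesion molecules), 1 rose and 0 fell at 2 h, namely Cd47, the integrin-associated protein, by 0.75 (log2), and at 12 h 1 rose, Cd99, a protein of leukocyte passage between endothelial cells, by 1.08. The median of that list was 0.12 at 2 h, against −0.01 for all named genes.

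Emcn fell after birth in room air, and its probe set 94997_at had its lowest lung level at 12 h. The signal of 94997_at was 561.6, 461.3 and 523.4 at F21, 443.6, 490.8 and 448.4 at 2 h, 315.1, 325.2 and 360.5 at 6 h, 166.7, 245.7 and 161.9 at 12 h, and 304.4, 364.8 and 284.3 at 24 h. From 6 h on, all 9 arrays lay below all 3 arrays of F21. The change at 12 h was −1.45 (log2, 95% interval −1.94 to −0.96, SE 0.24, limma adjusted p = 0.00276), or 0.366 of F21, and it passed whichever array was left out. At 6 h (−0.63, adjusted p = 0.258) and 24 h (−0.70, adjusted p = 0.194) the limma changes did not pass. A further probe set of the gene, 93885_g_at, read 111.6, 184.8 and 161.0 at 12 h, against 418.9, 346.0 and 426.6 at F21, and its change of −1.41 just missed the threshold (limma adjusted p = 0.0545). The probe sets ran alike over the 24 lung arrays (Pearson r 0.75 of log2 signals, a description).

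Lyve1 moved the other way. Its signal was 115.4, 96.1 and 118.5 at F21, 193.3, 146.7 and 257.3 at 2 h, 295.2, 225.8 and 247.5 at 6 h, 283.8, 339.6 and 388.6 at 12 h, and 321.6, 259.7 and 379.9 at 24 h. All 12 arrays after birth lay above all 3 arrays of F21. The log2 change was 0.82 at 2 h (limma adjusted p = 0.118), 1.22 at 6 h (95% interval 0.61 to 1.82, adjusted p = 0.0387), 1.61 at 12 h (1.01 to 2.22, adjusted p = 0.0049) and 1.53 at 24 h (0.93 to 2.14, adjusted p = 0.0159), or 2.32-, 3.05- and 2.89-fold at the last 3 times. The call at 12 h passed whichever array was left out, the call at 6 h was lost whichever array was left out (limma adjusted p 0.0896 to 0.165), and the call at 24 h was lost without F21 replicate 1, F21 replicate 2 or 24 h replicate 3 (highest adjusted p 0.133). The summed signal of 4 other lymphatic markers (Flt4, Pdpn, Reln and Prox1) was 125.4 to 271.4 at 12 h, against 222.5 to 283.1 at F21, and 0 of the 3 tested passed at 2 or 12 h. In lung the median signal of Prox1 was 7.05, below the floor, and that of Reln 13.35, so the sum was mostly Flt4 and Pdpn. Pdpn also counts among the lung epithelial markers. Lymphatic content cannot be read from this sum. Among 8 leukocyte markers, S100a8, a granule protein of neutrophils, rose at all 4 times, by 1.65, 3.04, 1.87 and 1.34 (log2) at 2, 6, 12 and 24 h. S100a9 passed at 2, 6 and 12 h, and Lyz2 and Cd68 passed at no time. The sum of the list was 2123.9 to 2957.4 at 12 h, against 874.2 to 1729.4 at F21. Ptprc, the antigen of all leukocytes, had a median lung signal of 8.2, below the floor. The part of these cells in the Lyve1 result was not tested.

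Set against each other within an array, Lyve1 and Emcn 94997_at shifted furthest between F21 and 12 h in room air. The log2 difference of Lyve1 minus Emcn was −2.23 ± 0.08 at F21, −1.25 ± 0.47 at 2 h, −0.39 ± 0.25 at 6 h, 0.83 ± 0.40 at 12 h and 0.002 ± 0.46 at 24 h in room air (SD, n = 3 each). It was −1.11 ± 0.80, −0.88 ± 0.06 and −0.19 ± 1.06 at F21, 2 h and 6 h in lungs of 10% oxygen, where F21 already overlapped with 6 h. The zero of this difference has no meaning, since it joins unlike probe sets, and the pair was chosen after its values were seen, so only the shift between groups is given and no test. The difference of Cdh5 minus Emcn in room air was −0.33 ± 0.30 at F21 and 0.84 ± 0.34, 0.42 ± 0.31, 0.63 ± 0.31 and 0.62 ± 0.24 at 2, 6, 12 and 24 h.

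**Figure D2:**
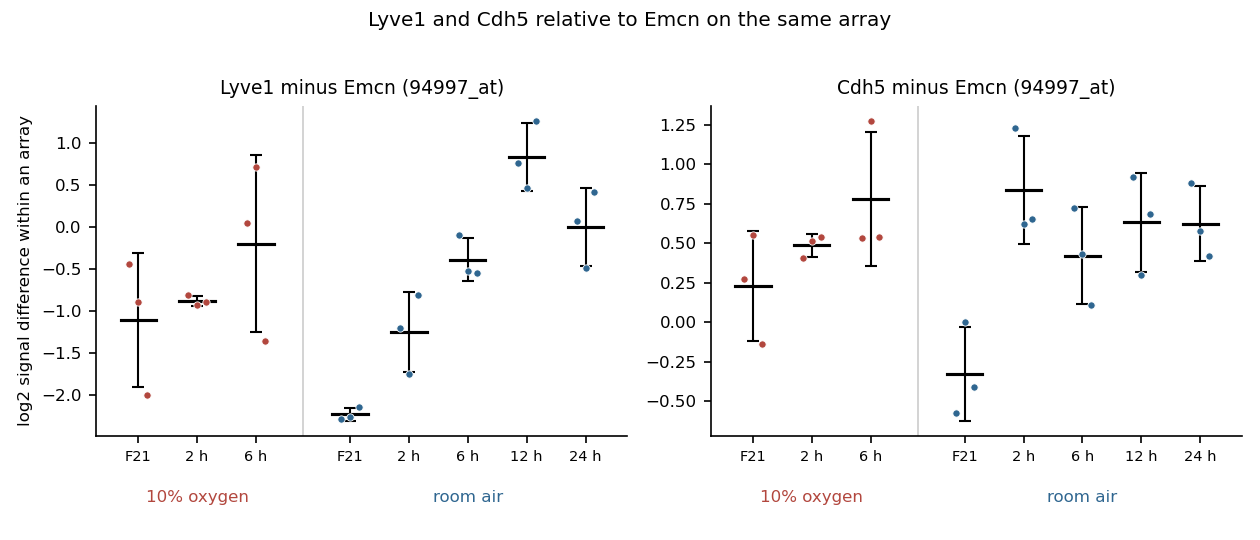
Log2 difference within each array of Lyve1 minus Emcn 94997_at and of Cdh5 minus Emcn 94997_at, with lungs of 10% oxygen left of room-air lungs. Points are arrays and bars are mean ± SD of 3 arrays. In room air Lyve1 minus Emcn climbs through 12 h (0.83 at 12 h, against −2.23 at F21), and only the shift between groups can be read.

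Neither VEGF receptor passed the test over the first day in room air. Kdr, the receptor that carries most VEGF signalling, read 180.7, 84.2 and 158.7 at F21, 125.3, 113.1 and 110.3 at 2 h, and 63.6, 118.0 and 86.9 at 12 h, with log2 changes of −0.21, −0.35, −0.63 and −0.17 at 2, 6, 12 and 24 h and overlapping arrays throughout. Flt1, which binds VEGF tightly and limits its action on Kdr, ran between 58.9 and 113.8 on probe set 98452_at in all room-air lungs, and its log2 changes were −0.07 to 0.27. Among 12 genes of the VEGF family tested (ligands, neuropilins, Flt4 and the HIF subunits), 0 changed in room air at 2, 6, 12 or 24 h. Vegfa itself had log2 values of −0.95, −1.10, −0.63 and −0.89 at these times, with limma adjusted p-values of 0.199 to 0.623, and Epas1, the HIF subunit strong in lung endothelium, had 0.71, 0.85, 1.27 and 1.31, with adjusted p-values of 0.276 to 0.553.

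Tek had its highest room-air levels late in the first day. Its signal was 86.0, 91.4 and 91.5 at F21, 67.6, 89.4 and 80.0 at 2 h, 91.5, 92.3 and 84.3 at 6 h, 149.3, 204.7 and 208.5 at 12 h, and 117.6, 195.1 and 238.7 at 24 h. All 6 arrays of 12 and 24 h lay above the 9 arrays of earlier times, but the log2 changes of 1.05 (95% interval 0.32 to 1.78, limma adjusted p = 0.174) and 0.98 (0.25 to 1.70, adjusted p = 0.255) did not pass. Tie1, an orphan receptor that pairs with TIE2, was read by probe sets that shared little, with a Pearson r of 0.17 over the 24 lung arrays. Probe set 161184_f_at read 238.9, 232.7 and 219.8 at 2 h, above 167.6, 191.1 and 123.0 at F21 (log2 0.54, limma adjusted p = 0.389), while 99936_at overlapped with F21 at every time. Of 7 genes listed with the angiopoietins and TIE receptors, 0 changed at 2, 6 or 24 h and 1 rose at 12 h. That gene was Angptl4, an angiopoietin-like inhibitor of lipoprotein lipase and no TIE ligand by that role, by 2.02 on its brightest probe set. Angpt2, the TIE2 ligand released by endothelium, had log2 values of 0.02, −0.11, −0.73 and −0.18.

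Eng read low at 2 h and high at 6 h, though neither change passed. Its signal was 1442.2, 1730.1 and 984.5 at F21, 758.5, 1043.3 and 949.0 at 2 h, 2222.4, 2503.9 and 2397.0 at 6 h, 1957.6, 1548.5 and 1292.2 at 12 h, and 1715.0, 1569.4 and 1685.5 at 24 h. The 3 arrays at 6 h were above all other room-air lungs, and those at 2 h had the lowest mean of all 8 lung groups while overlapping with F21. The log2 change was −0.57 at 2 h (95% interval −1.09 to −0.05, limma adjusted p = 0.226) and 0.81 at 6 h (0.29 to 1.33, adjusted p = 0.137), and F21 replicate 3 was the low array of its group. Among 19 genes of endoglin, BMP and TGF-beta signalling, 1 fell at 2 h, Acvrl1, the type I receptor ALK1 that works with endoglin, by 0.80, and 0 changed at 6, 12 or 24 h. Bmpr2, the BMP type II receptor, had log2 values of −0.35, 0.06, −0.46 and −1.12 with limma adjusted p-values of 0.609 or more.

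Of 42 other endothelial genes tested, few passed in room air. At 2 h, 2 rose, Klf4, a flow-responsive transcription factor of endothelium that epithelium and fibroblasts use too, by 2.47 (log2) and Nr2f2, the factor of venous identity, by 1.75, and 0 fell. The median of that list was 0.05 at 2 h, against −0.01 for all named genes. At 6 and 24 h, 0 passed, and at 12 h, 2 rose, Aqp1, the water channel of capillaries, by 1.54 and Icam1, the leukocyte adhesion molecule, by 1.43, with a list median of 0.28, against −0.02 for all named genes. Hyal2, a hyaluronidase from the list of sialomucin and hyaluronan genes, rose at 12 h by 1.63.

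**Figure D3:**
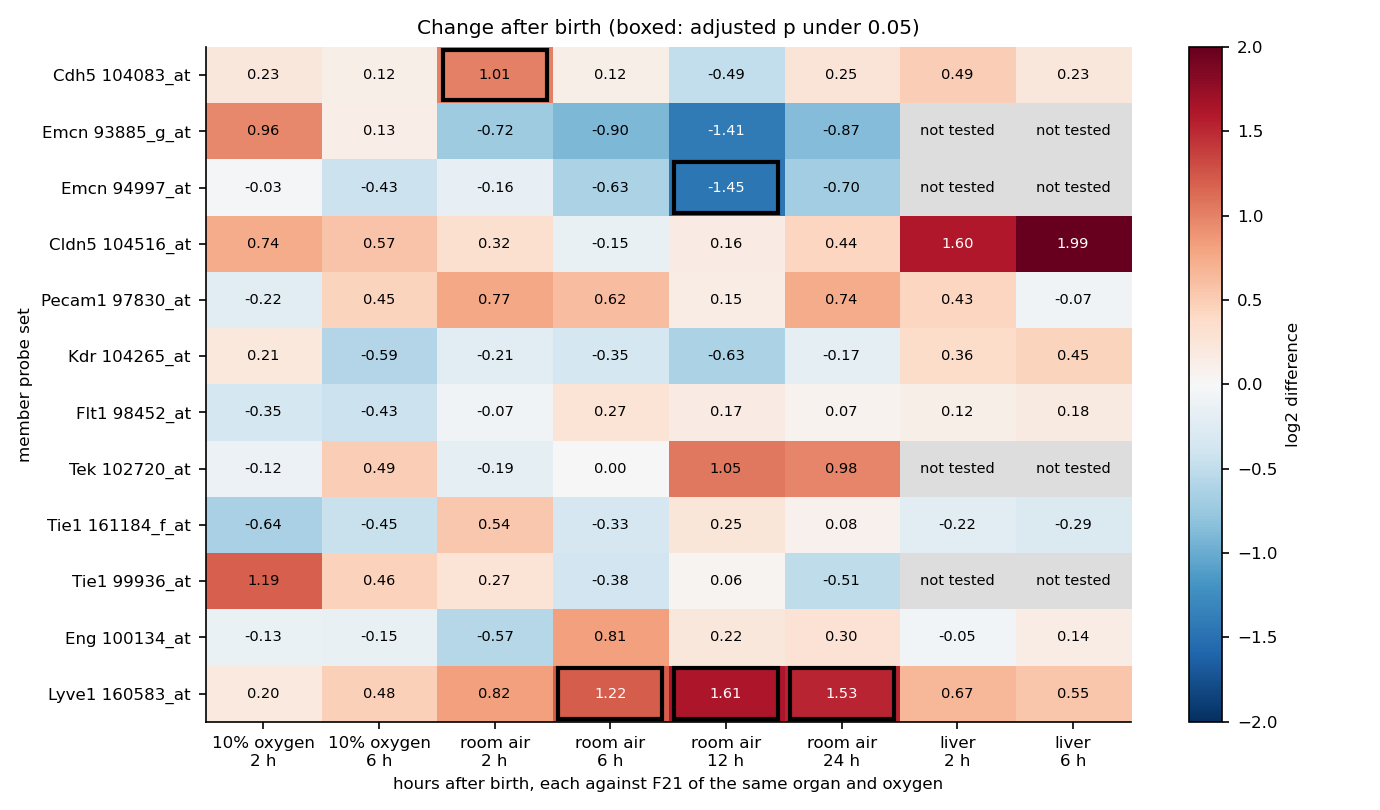
Log2 change of each member probe set after birth against F21 of its own arm, with columns for 10% oxygen at 2 and 6 h, room air at 2, 6, 12 and 24 h, and liver at 2 and 6 h. Red is higher and blue lower than F21, grey marks probe sets not tested, and boxes mark a limma adjusted p under 0.05. The boxes are Cdh5 at 2 h, Lyve1 at 6, 12 and 24 h and Emcn 94997_at at 12 h, all in room air.

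Born into 10% oxygen, lungs showed no called change of a member against the F21 lungs of their own arm. At 2 h 0 of 12 member probe sets passed in limma, where 2.66% of all tested probe sets did, and 3 had an unadjusted p under 0.05. At 6 h 0 of 12 passed, where 6.31% of all did, and 1 had an unadjusted p under 0.05. Cdh5 read 287.6, 493.0 and 359.5 at F21, 413.5, 532.8 and 371.4 at 2 h, and 344.8, 406.2 and 471.3 at 6 h, and its log2 change at 2 h was 0.23 (95% interval −0.23 to 0.68). Lyve1 read 175.8, 181.8 and 99.4 at F21, 178.4, 196.8 and 137.0 at 2 h, and 246.1, 276.6 and 126.9 at 6 h, with log2 changes of 0.20 (−0.41 to 0.80) and 0.48 (−0.12 to 1.09). Arrays of both genes overlapped between the ages in this arm. Emcn 93885_g_at read 238.8, 276.1 and 265.7 at 2 h, against 66.0, 208.6 and 171.4 at F21, with no overlap and a log2 change of 0.96 (0.21 to 1.72, limma adjusted p = 0.17), while 94997_at overlapped throughout (−0.03 at 2 h and −0.43 at 6 h). Cldn5 stood above its F21 arrays at both times, since its arrays of 641.5, 1360.4 and 790.3 at 2 h and 650.0, 702.3 and 1054.2 at 6 h lay above 553.1, 536.7 and 498.6 at F21, with log2 changes of 0.74 and 0.57 (limma adjusted p = 0.134 and 0.207). Tie1 99936_at read 203.6, 196.9 and 407.1 at 2 h, against 184.9, 71.4 and 103.9 at F21 (log2 1.19, limma adjusted p = 0.134). It passed only without F21 replicate 1, the highest of its group (1.56, limma adjusted p = 0.0497). The other probe set of Tie1 ran the opposite way, with 161184_f_at at 130.4, 188.5 and 108.3 at 2 h, all below its F21 arrays, of which the lowest read 201.0 (log2 −0.64, limma adjusted p = 0.3).

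Several of the other endothelial genes passed in this arm. At 6 h 6 of 42 rose and 1 fell: Edn1, the vasoconstrictor endothelin-1, rose by 3.27 (log2), Aqp1 by 2.08, Klf4 by 1.65, Ace, the angiotensin-converting enzyme of lung capillaries, by 1.52, Sox17, an arterial transcription factor, by 1.04 and Ramp2, the adrenomedullin co-receptor, by 0.81, and Vcam1, the adhesion molecule induced in inflamed endothelium, fell by 1.63. The list's median was 0.32, against −0.03 for all named genes. At 2 h, 3 of 42 had risen and 0 fallen, Edn1 by 2.56, Ace by 1.32 and Klf2, a factor induced by laminar flow, by 3.68. Edn1 and Aqp1 had started low, since at F21 they were lower in 10% oxygen than in room air, by −2.28 and −1.38. The same held for Tgfbr3 (−1.27) and Scgb1a1 (−2.15), whose rises follow. Angptl4 rose by 1.55 at 6 h and Tgfbr3, a TGF-beta co-receptor related to endoglin, by 1.30 at 2 h and 1.46 at 6 h. Of 12 VEGF family genes, 1 passed at 6 h, Vegfb, a ligand, which was lower (log2 −2.34, limma adjusted p = 0.023). Its arrays overlapped with F21. Leukocyte markers moved in the same lungs, with a summed signal of 374.1 to 749.3 at F21, 982.8 to 1568.9 at 2 h and 1429.1 to 2075.6 at 6 h, 4 of 10 fibroblast and smooth muscle markers fell at 6 h, and lung epithelial markers summed to 22149.8 to 40641.1 at F21, 42816.2 to 49176.6 at 2 h and 49563.6 to 53819.5 at 6 h, with Scgb1a1, the club cell secretory protein, called higher by 2.58 and 3.47. The part of these cells in these values was not tested.

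Set directly against room air at the same age, lungs of 10% oxygen had a lower Emcn signal before birth and a lower Cdh5 signal at 2 h. At F21, 1 of 12 member probe sets passed, a share close to the 7.13% of all tested probe sets. Emcn 93885_g_at read 66.0, 208.6 and 171.4 in 10% oxygen, against 418.9, 346.0 and 426.6 in room air, with no overlap. Its log2 difference was −1.57 (95% interval −2.33 to −0.81, SE 0.37, limma adjusted p = 0.0107), or 0.337 of room air. Emcn 94997_at ran the same way without passing, at 238.0, 336.0 and 395.7, against 561.6, 461.3 and 523.4, with a log2 difference of −0.70 (adjusted p = 0.0735). The 93885_g_at call was lost without the F21 room-air replicate 1 (limma adjusted p = 0.0505) or without the F21 10% oxygen replicate 1 (log2 −1.06, adjusted p = 0.0555), and without the array that held hepatocyte markers the difference was −1.89 (adjusted p = 0.00645). With the Gapdh 3′ to 5′ ratio of each array in the fit it was −2.38 (adjusted p = 0.00491). That ratio did not overlap between the arms, so this fit cannot separate RNA quality from oxygen level. At this age the summed lung epithelial markers were 22149.8 to 40641.1 in 10% oxygen, against 48268 to 62565.6 in room air, and the leukocyte markers 374.1 to 749.3, against 874.2 to 1729.4, and their part in the Emcn difference was not tested.

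At 2 h, Cdh5 was 413.5, 532.8 and 371.4 in 10% oxygen, against 1040.9, 754.4 and 706.5 in room air, with no overlap. The log2 difference was −0.92 (95% interval −1.38 to −0.46, SE 0.22, limma adjusted p = 0.00628), or 0.528 of room air. Cdh5 was the 1 of 12 member probe sets that passed, a smaller share than the 16.8% of all tested probe sets. Without the room-air replicate 1 at 2 h the limma difference was −0.75 (adjusted p = 0.0518), and with the Gapdh ratio in the fit it was −1.29 (adjusted p = 0.00224). The fit with the Gapdh ratio has the same limit as at F21. Kdr was 237.1, 167.9 and 313.6 in 10% oxygen, against 125.3, 113.1 and 110.3 in room air, which did not overlap, with a log2 difference of 0.999 (95% interval 0.22 to 1.78) that did not pass (limma adjusted p = 0.0704). Tie1 161184_f_at lay lower, at 130.4, 188.5 and 108.3, against 238.9, 232.7 and 219.8 (log2 −0.73, limma adjusted p = 0.114), and Eng higher, at 1051.8, 1620.1 and 1595.4, against 758.5, 1043.3 and 949.0 (0.62, adjusted p = 0.0949). Neither passed. Of the 6 fits that left out 1 array, Eng passed only without the 10% oxygen replicate 1 (0.82, limma adjusted p = 0.049). That array was the lowest of its group, so its loss was bound to widen the difference. Lung epithelial markers summed to 42816.2 to 49176.6 in 10% oxygen at this age, against 27659.8 to 32483.4 in room air, and their part in the Cdh5 difference was not tested.

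At 6 h 0 of 12 passed, where 5.8% of all tested probe sets did, and 2 had an unadjusted p under 0.05. The member nearest to the threshold was Eng, at 1280.6, 2224.4 and 909.3 in 10% oxygen, against 2222.4, 2503.9 and 2397.0 in room air. The groups overlapped only through replicate 2 of 10% oxygen, and the log2 difference was −0.79 (95% interval −1.31 to −0.27, limma adjusted p = 0.0656). Of the 6 fits that left out 1 array, Eng passed only in the fit without that array (log2 −1.14, limma adjusted p = 0.0103). That array was the highest of its group, so its loss was bound to widen the difference.

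Whether the change after birth itself differed between the arms was tested as an interaction, and for the members it was not shown. At 2 h 0 of 12 member probe sets passed in limma, where 0.476% of all tested probe sets did, and 3 had an unadjusted p under 0.05. The change of Cdh5 in 10% oxygen minus its change in room air was −0.78 (log2, 95% interval −1.42 to −0.13, unadjusted p = 0.0202, limma adjusted p = 0.289). For Emcn 93885_g_at it was 1.68 (adjusted p = 0.164) and for Tie1 161184_f_at −1.19 (adjusted p = 0.265). At 6 h 0 of 12 passed, where 0.0144% of all did, and 1 had an unadjusted p under 0.05, Eng, at −0.96 (limma adjusted p = 0.443), while Lyve1 stood at −0.74 (−1.59 to 0.12, adjusted p = 0.635). The calls of Cdh5 and Lyve1 in room air and their absence in 10% oxygen are therefore not shown to differ.

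**Figure D4:**
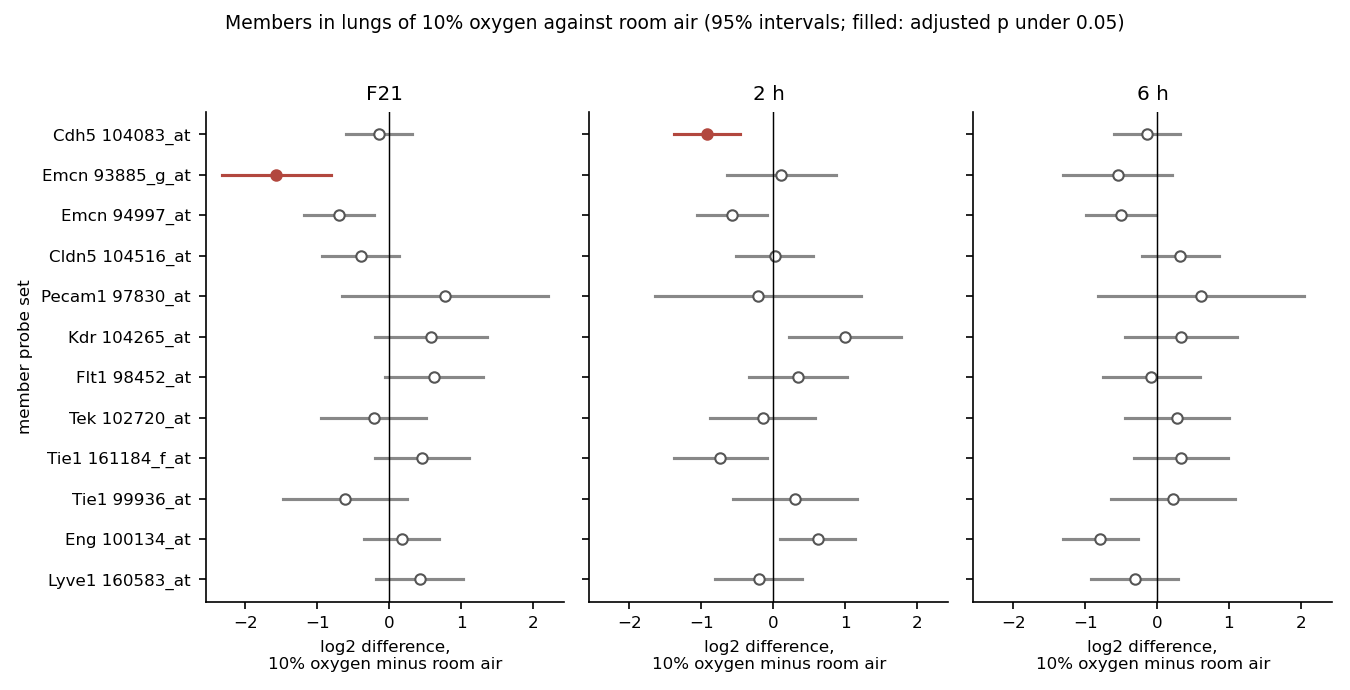
Log2 difference of each member probe set, lungs of 10% oxygen minus room-air lungs, at F21, 2 h and 6 h. Points are limma estimates and lines their 95% intervals, and filled points have a limma adjusted p under 0.05. The filled points are Emcn 93885_g_at at F21 (−1.57) and Cdh5 at 2 h (−0.92).

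Among the ligands and partners, Tgfb1, a ligand of the endoglin complex, stood far apart between the arms, between 72.4 and 237.4 in 10% oxygen and between 10.1 and 37.8 in room air, with log2 differences of 3.22, 3.13 and 3.22 at F21, 2 h and 6 h that all passed in limma. Its signal in liver was 67.7 to 228.3. The lowest room-air lung arrays of Tgfb1 lay near the floor of 10, so the size of its differences depends in part on low signals. RNA quality and oxygen level cannot be told apart for any difference between the arms in this paragraph. The RNA signal of Hif1a, a HIF subunit, was lower in 10% oxygen at 2 h (−1.01) and 6 h (−1.52). Nrp1, a VEGF co-receptor, and Jup, the junction protein plakoglobin, were higher at 6 h (1.53 and 1.42). Acvrl1 was higher in 10% oxygen at 2 h (log2 0.79, limma adjusted p = 0.017). Of 42 other endothelial genes at 2 h, 5 were higher in 10% oxygen and 4 lower, where 16.8% of all tested probe sets passed (list median 0.27, against −0.03 for all named genes). The higher ones were Klf2 at 3.16 and Ramp2, Hes1, Notch1 and Pdgfb at 0.91 to 0.95, and the lower ones Nr2f2 at −2.12, Cav1 at −1.46, Klf4 at −1.36 and Mcam at −1.21, and Hyal2 was higher at F21 and 2 h, by 1.83 and 1.48.

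In liver none of the 8 members tested passed after birth. At 2 h 0 of 8 member probe sets passed in limma, where 0.914% of all tested probe sets did, and at 6 h 0 of 8, where 1.85% did, with 2 and 1 at an unadjusted p under 0.05. Cldn5 came nearest, with signals of 19.0, 38.8 and 18.3 at F21, 125.3, 59.2 and 50.8 at 2 h, and 78.8, 99.4 and 107.5 at 6 h. All 6 arrays after birth lay above the 3 of F21, and the log2 changes were 1.60 (95% interval 0.44 to 2.76, limma adjusted p = 0.228) and 1.99 (0.83 to 3.14, adjusted p = 0.092). Lyve1, which marks liver sinusoids, read 76.0, 57.8 and 86.6 at F21, 84.1, 122.3 and 149.3 at 2 h, and 117.0, 90.3 and 113.6 at 6 h (log2 0.67 and 0.55), and Cdh5 read 72.9, 91.4 and 75.0, then 164.0, 85.1 and 99.3, then 103.2, 77.5 and 101.4. Angptl4 rose in liver as well, by 1.40 at 2 h and 1.32 at 6 h, and Aqp1 by 0.97 at 6 h.

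Between lung and liver at F21, Cldn5 and Emcn differed most among the members. In room-air F21 lungs 9 of 12 member probe sets were higher than in F21 livers and 0 lower, where 34.5% of all tested probe sets passed, 1380 of 7075 higher and 1062 lower. The median member difference was 1.37 (log2), against 0.15 over all tested probe sets. With the Gapdh ratio in the fit 5 member probe sets passed, and that ratio did not overlap between these organs. Cldn5 read 649.2, 716.4 and 722.3 in lung, against 19.0, 38.8 and 18.3 in liver, a log2 difference of 4.87 (95% interval 4.22 to 5.51, limma adjusted p = 9.75e-12) or 29.2-fold. Emcn 94997_at read 561.6, 461.3 and 523.4 in lung, against 41.9, 52.7 and 51.1 in liver (3.41, or 10.6-fold), while 93885_g_at read 418.9, 346.0 and 426.6 in lung, against 10.8, 6.6 and 11.3 in liver, near the floor of 10 and in 1 array under it, so its difference of 5.21 depends in part on that floor. Cdh5 read 377.0, 462.1 and 393.7 in lung, against 72.9, 91.4 and 75.0 in liver, a log2 difference of 2.37 (1.89 to 2.84, limma adjusted p = 1.59e-08) or 5.16-fold. Over all ages the lowest of the 24 lung arrays exceeded the highest of the 9 liver arrays for Cdh5 (260.1 against 164), for Cldn5 (484.1 against 125.3) and for Emcn 94997_at (161.9 against 76.1).

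Among the receptors the differences were smaller, apart from 1 probe set of Tie1. Tie1 passed on both probe sets, by 1.02 on 161184_f_at (limma adjusted p = 0.0123) and 2.44 on 99936_at, and Tek by 1.72 (adjusted p = 0.0264), with 86.0, 91.4 and 91.5 in lung, against 25.8, 78.4 and 8.5 in liver. Kdr (0.95, limma adjusted p = 0.0358) and Eng (0.51, adjusted p = 0.0449) passed although their arrays overlapped. Flt1 (0.61, limma adjusted p = 0.306), Lyve1 (0.60, adjusted p = 0.0688) and Pecam1 (−0.13, adjusted p = 0.892) did not pass. When 1 array was left out in turn, Tek lost its call in 5 of 6 fits, Eng and Kdr in 4 of 6 and Tie1 161184_f_at in 2 of 6, and the other 5 probe sets kept theirs. Tek kept its call without liver replicate 2 alone. Eng lost it without lung replicate 1 or 2 or liver replicate 2 or 3 (highest limma adjusted p 0.24), Kdr without lung replicate 1 or 3 or liver replicate 2 or 3 (0.163), and Tie1 161184_f_at without lung or liver replicate 2 (0.0593).

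**Figure D5:**
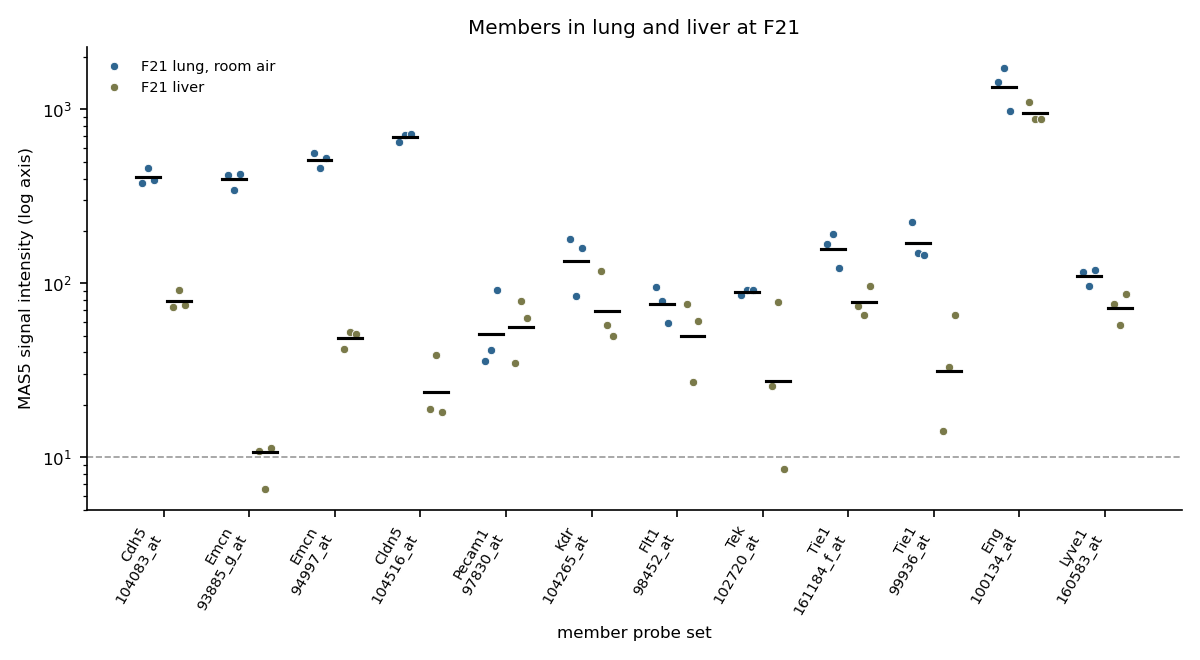
Signal of each member probe set in F21 room-air lungs and, beside them, F21 livers, on a log axis. Points are arrays, black bars their geometric mean with signals under the floor of 10 set to it, and the dashed line is that floor. Emcn 93885_g_at (5.21 on the log2 scale), Cldn5 (4.87) and Emcn 94997_at (3.41) show the widest gaps, and Pecam1, Eng, Kdr and Flt1 98452_at overlap between the organs.

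Among the related lists at F21, 4 had a median above that of all named genes and 2 had one below it. Of 23 junction partners 17 were higher in lung and 2 lower (median 1.33, against 0.16 for all named genes), with Ctnnb1, the beta-catenin that binds VE-cadherin, at 1.66. Of 42 other endothelial genes 28 were higher and 1 lower (median 1.75), among them Cav1, of endothelial caveolae, by 4.19. Of 17 endoglin, BMP and TGF-beta genes 9 were higher and 1 lower (median 0.77), with Acvrl1 at 2.86 and Tgfb1, the lower one, at −3.17. The lung signal of Tgfb1 was low, as given above, and RNA quality and organ cannot be told apart here. Of 13 VEGF family genes 4 were higher and 1 lower (median 0.49), Nrp1 by 3.18 and Vegfa by 2.58. Of 6 genes listed with the angiopoietins and TIE receptors 1 was higher, Ptprb, the endothelial phosphatase that acts on TIE2, by 2.56, and 1 lower (median −0.02). Of 5 sialomucin and hyaluronan genes 1 was higher and 0 lower (median −0.24), with 2 of the 5 above 0. Hepatocyte markers ran the other way, with 6 of 6 lower in lung.

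The change after birth in room-air lung minus that in liver was tested in the same fit of both organs. At 2 h 0 of 12 member probe sets passed in limma, where 1.96% of all tested probe sets did, with Cldn5 at −1.28 (log2, adjusted p = 0.14). At 6 h 2 of 12 passed, both lower, where 0.551% of all did. Cldn5 had a log2 difference of −2.14 between its change in lung and that in liver (95% interval −3.05 to −1.23, SE 0.44, limma adjusted p = 0.0267), its signals at 6 h being 761.2, 666.9 and 484.1 in lung and 78.8, 99.4 and 107.5 in liver. Emcn 93885_g_at differed by −2.66 (−3.94 to −1.38, SE 0.62, limma adjusted p = 0.0496), with 182.9, 213.7 and 245.1 in lung at 6 h and 16.2, 45.7 and 64.1 in liver, and 94997_at by −1.14 (adjusted p = 0.106). Both calls were fragile, since Cldn5 lost its own in 9 of 12 fits that left out 1 array (adjusted p 0.00864 to 0.0689) and Emcn in 11 of 12 (0.00667 to 0.137), and with the Gapdh ratio in the fit neither passed. Cldn5 kept its call without lung 6 h replicate 1, liver F21 replicate 2 or liver 6 h replicate 1, and Emcn without liver 6 h replicate 1 only. At 2 h the Cldn5 difference passed only in the fit without liver F21 replicate 2, the highest array of its group (−1.63, limma adjusted p = 0.0457). Neither Cdh5 (0.51 at 2 h and −0.11 at 6 h) nor Lyve1 (0.15 and 0.66) passed in this comparison.

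The 10 genes did not move as 1 block over the 24 lung arrays. Pearson correlations of log2 signals among the 12 member probe sets ran from −0.61, for Lyve1 with Emcn 94997_at, to 0.75, for the Emcn probe sets with each other. Cdh5 correlated at 0.59 with Emcn 94997_at and at −0.41 with Eng, and Tek with Lyve1 at 0.67. All these points share the array, its RNA quality and its arm, so the values describe these arrays and carry no test. The genes most like the members' mean over the same arrays were Zmat3 (r 0.66), Ece1 (0.60), Aldh1a1, Tgfbi and Atp2a3, and those most like Cdh5 alone were Sf3b1 (0.79), Itgb1 (0.78), Eif3m, Srsf5 and Sypl. Ordered by mean log2 signal over the 11 groups, Cdh5 in room-air lungs at 2 h and Emcn 93885_g_at in room-air lungs at F21 stood above all other groups with no overlap. Eng in room-air lungs at 6 h did not overlap with the next group. Its lowest array, at 2222.4, was below replicate 2 of 10% oxygen at 6 h, at 2224.4. All neighbouring groups of Kdr, Flt1 98452_at, Tek and Pecam1 overlapped.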

How the data were processed

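Each of the 33 samples was 1 MGU74Av2 array of whole-organ total RNA. The deposited values are signal intensities that the authors made with Affymetrix Microarray Suite (MAS 5.0), with each array scaled to a target intensity of 100. Groups follow the sample labels. The members, gene lists and tests were chosen with earlier results of these data known. Genes were named from the platform annotation, and 396 probe sets of several genes, 1193 of no gene and 66 controls were left out of gene counts. Signals under 10 were set to 10 and log2 was taken. Probe sets in the top 40% of signals on at least 3 arrays were tested, in place of the detection filter of the methods, since detection calls are not used here. Limma 3.58.1 in R 4.3.3 was fitted to all 24 lung arrays, to the 9 livers, or to 15 room-air lungs with the 9 livers, with 1 term a group and no block, and p-values were adjusted by Benjamini-Hochberg over all probe sets tested. The code was tested on simulated data. Every member is named, whatever its result. Named partners were a fixed set of ligands and direct partners, and up to 3 further genes a list and comparison that passed, by smallest p. Likeness took the 5 genes of highest r. Genes outside these rules (Klf4, Klf2, Ramp2, Hes1, Notch1 and Pdgfb between the arms at 2 h, and Ramp2, Sox17, Klf4 and Vcam1 at 6 h in 10% oxygen) were named after their values were seen. Alternatives were quantile normalization, testing every probe set or the top 30% by median signal, a floor of 1, adding 16 before the log, replicate number as a block, array weights, the Gapdh ratio as a covariate, only the groups compared, the methods' test, another baseline, and leaving out each array. The methods' test stands here for a t-test between the groups compared, on floored log2 signals after the signal filter, not the detection filter. Its own threshold was an unadjusted p under 0.01, and the Benjamini-Hochberg step was added here. Protein and blot data were not analysed here.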

Additional observations from a re-analysis of the deposited data

Results flagged for a closer look

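The change at 6 h after birth in room-air lung minus that in liver differed from 0 in limma for 2 members. For Cldn5 it was −2.14 (log2), with changes of −0.15 in lung and 1.99 in liver. For Emcn 93885_g_at it was −2.66, with a change of −0.90 in lung and liver signals of 16.2, 45.7 and 64.1 at 6 h, against 10.8, 6.6 and 11.3 at F21. Of the 3 liver arrays of Emcn at F21, 1 was under the floor of 10 and the others were near it. The calls of Cldn5 and Emcn were both fragile when 1 array was left out, as given above.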

How the results depend on the processing

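Values are counts of member probe sets that passed. In room air against F21 at 2, 6, 12 and 24 h, where 1, 1, 2 and 1 passed, array weights gave 3, 2, 4 and 3 and the methods' test after Benjamini-Hochberg 0 at each time. Only the groups compared gave 2, 2, 4 and 0, and the methods' test at its own threshold 3, 4 and 3 at 6, 12 and 24 h. At 6 h quantile normalization, no filter and the replicate block each gave 0. For 10% oxygen against room air, the methods' test at F21 gave 1 at its own threshold, which was Cldn5 (−0.39) in place of Emcn, and 0 after Benjamini-Hochberg, and at 2 h the methods' test gave 0 with and without it, and array weights and only the groups compared 2 each. At 6 h in 10% oxygen, taking room-air F21 lungs for the baseline gave 2, and turned Emcn 93885_g_at to −1.44 (limma adjusted p = 0.0166), against 0.13 with its own baseline. In liver at 6 h the methods' test gave 1. For F21 lung against liver, where 9 passed, the Gapdh ratio gave 5 and the methods' test 4 before and after adjustment. For the 6 h change of lung minus liver, where 2 passed, a floor of 1 and only the groups compared gave 1 each, and no filter and the Gapdh ratio 0 each. With 1 array left out in turn, counts ranged over 0 to 1 at 2 h in room air, 0 to 0 at 6 h, 2 to 2 at 12 h, 0 to 1 at 24 h, 0 to 1 and 0 to 0 at 2 and 6 h in 10% oxygen, 0 to 1, 0 to 2 and 0 to 1 for 10% oxygen against room air at F21, 2 h and 6 h, 0 to 0 for both interactions and both liver times, 6 to 8 for F21 lung against liver, and 0 to 1 and 0 to 2 for lung minus liver at 2 and 6 h. Same-numbered arrays did not deviate together (correlations −0.139 to 0.134), so they share only a number; with replicate as a block the counts were 1, 0, 3 and 1 in room air, 0 and 0 in 10% oxygen, 1, 1 and 0 between the arms, 10 for F21 lung against liver and 0 and 2 for lung minus liver, and Lyve1 at 6 h had a limma adjusted p of 0.0517. Cldn5 in liver passed only the methods' unadjusted test. Over all tested probe sets at 2 h against F21, array weights gave 1123 in room air, where 294 passed without them. In 10% oxygen they gave 55, where 184 passed without them. The cause of these shifts was not tested.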
